A study of Homo sapiens with 24 samples.

Results

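The Pink1 siRNA comparison set 6 samples of ARPE-19 cells that received siRNA against PINK1 beside 6 samples that did not. ARPE-19 is an established line of human cells from the retinal pigment epithelium (RPE), the pigmented cell layer that supports the photoreceptors. The 6 samples with Pink1 siRNA were 3 given Pink1 siRNA alone and 3 given the combined Nrf2-Pink1 siRNAs, and the 6 without it were 3 given a scrambled siRNA and 3 given Nrf2 siRNA alone. The samples were chosen by their labels, and all 12 biological samples of the series took part, each as the mean of 2 technical replicates (24 deposited samples). Expression was measured in TPM, the abundance of a gene's transcripts scaled to the same total in every sample. Of 24053 gene identifiers in the table, 13810 had a mean of at least 1 TPM and were tested. The labels call the groups knockouts or KD, but the design of the series names siRNA, and the groups are called siRNA here. Scratch wounds appear in the protocols without a statement on whether cells were wounded before RNA extraction, and no source used here gives the amount of siRNA in the combined group. The labels name the samples biological replicates without saying that they came from separate cultures, so the p-values below measure the spread between these samples. According to its title, the series asks whether a shortage of PINK1, acting on signals from mitochondria to NRF2, leads to epithelial-mesenchymal transition (EMT).

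PINK1 is a kinase that accumulates on the surface of damaged mitochondria, phosphorylates ubiquitin there, and so marks these mitochondria for removal by mitophagy. NRF2, the protein made from NFE2L2, is the transcription factor that drives genes of the antioxidant response. RPE cells depend heavily on their mitochondria, and in disease they can lose epithelial traits and take up mesenchymal ones.

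Because TPM keeps no read counts, the depth of each sample is unknown. Over the genes tested, the median SD of log2(TPM + 1) between single technical replicates was 0.199. Between biological samples it ran from 0.172 in the scramble group to 0.311 in the Nrf2-Pink1 group. The biological samples are already means of 2 technical replicates, so the technical and biological values cannot be compared directly. A single identifier, ENSG00000226958, held between 15.5% and 41.4% of all TPM, and both extremes were Nrf2-Pink1 samples (replicate 3 and replicate 1). The annotation and name tables used here do not list this identifier, so what RNA it stands for is not given here, and since TPM has a fixed total its share enters the level of every other gene. Epithelial and RPE markers were present, with KRT8 at 728 to 1084 TPM, MITF at 55.3 to 110.5 TPM and OTX2 at 47.7 to 93.8 TPM. RPE65, the isomerase of the visual cycle and a marker of mature RPE, was not above 0.36 TPM in any sample. Of the other RPE markers, LRAT, RLBP1 and SERPINF1 were at most 1.89, 3.69 and 3.86 TPM, and PMEL and BEST1 at most 7.14 and 9.475 TPM. KRT18, EZR and TYRP1 reached 866, 343 and 53 TPM. The leukocyte marker PTPRC (at most 0.445 TPM), the endothelial marker CLDN5 (at most 0.285 TPM) and the fibroblast collagen COL3A1 (at most 0.365 TPM) were near 0. Other members of the marker lists were present, with PDGFRB at 33.9 to 62.3 TPM and FAP at 2.79 to 13 TPM among fibroblast markers, SYT1 at 12.7 to 29.9 TPM among neural markers and CD68 at 19.3 to 104.8 TPM among blood cell markers. None of the marker genes tested from these other cell types was called in limma (1 higher and 0 lower at an unadjusted p under 0.05). Only bulk RNA was measured, in which fewer cells of a type and less RNA per cell cannot be told apart.

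PINK1 itself was lower in every sample that received its siRNA. It stood at 53.9, 57.7 and 55.8 TPM in the scramble samples and at 66.6, 50.7 and 54.3 TPM with Nrf2 siRNA alone. It fell to 13.2, 12.4 and 18.3 TPM with Pink1 siRNA and to 15.3, 20.5 and 20.2 TPM with Nrf2-Pink1 siRNA, with no overlap between the 6 and the 6. The samples with Pink1 siRNA held 29.5% of the PINK1 TPM of the others (16.7 ± 3.5 against 56.5 ± 5.5, SD, n = 6 each). The additive limma fit, which estimates the Pink1 siRNA effect with the Nrf2 siRNA state as a covariate, gave a log2 difference of -1.72 (SE 0.127, adjusted p = 2.46e-05). The exact permutation test, which exchanges the Pink1 label within each Nrf2 siRNA state over 400 arrangements, gave a two-sided p of 0.005, the smallest it can give. The fall was -1.88 without Nrf2 siRNA and -1.57 with it on the log2 scale, and the difference between these values did not pass the interaction test (limma adjusted p = 0.913).

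NFE2L2, the target of the other siRNA, showed no common shift with Pink1 siRNA. It stood at 89.2, 74.3 and 78.5 TPM in the scramble samples, and at 64.1, 70.4 and 71.6 TPM with Pink1 siRNA. With Nrf2 siRNA alone it stood at 25.05, 11.1 and 23.9 TPM, and with Nrf2-Pink1 siRNA at 22.2, 30.1 and 34.4 TPM. The Pink1 siRNA samples thus lay below all scramble samples, while the Nrf2-Pink1 samples overlapped those with Nrf2 siRNA alone. The log2 difference over all 12 samples was 0.17 (SE 0.202, adjusted p = 0.759).

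In the comparison of 6 with 6, 63 of 13810 genes (0.456%) passed an adjusted p of 0.05 in limma with Benjamini-Hochberg adjustment over all genes tested. Of these, 25 were higher with Pink1 siRNA (0.181%) and 38 lower (0.275%), and 17 changed by at least 2-fold, 4 of them higher and 13 lower. At an unadjusted p under 0.05 there were 1838 genes (13.3%), 958 higher and 880 lower. Of the 13810 genes, 7185 had a log2 difference above 0 and 6625 below. Among the 63 called genes, the rises ran from 0.62 to 1.70 and the falls from -2.59 to -0.53 on the log2(TPM + 1) scale. That scale understates the change of genes at low levels. All 63 had the same direction in both Nrf2 siRNA states, which the additive fit favours. In 60 of them the 3 samples with Pink1 siRNA did not overlap the 3 without it in either state (2.48% of all genes tested), and in 45 the 6 did not overlap the 6 (1.25% of all genes tested).

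**Figure D1:**
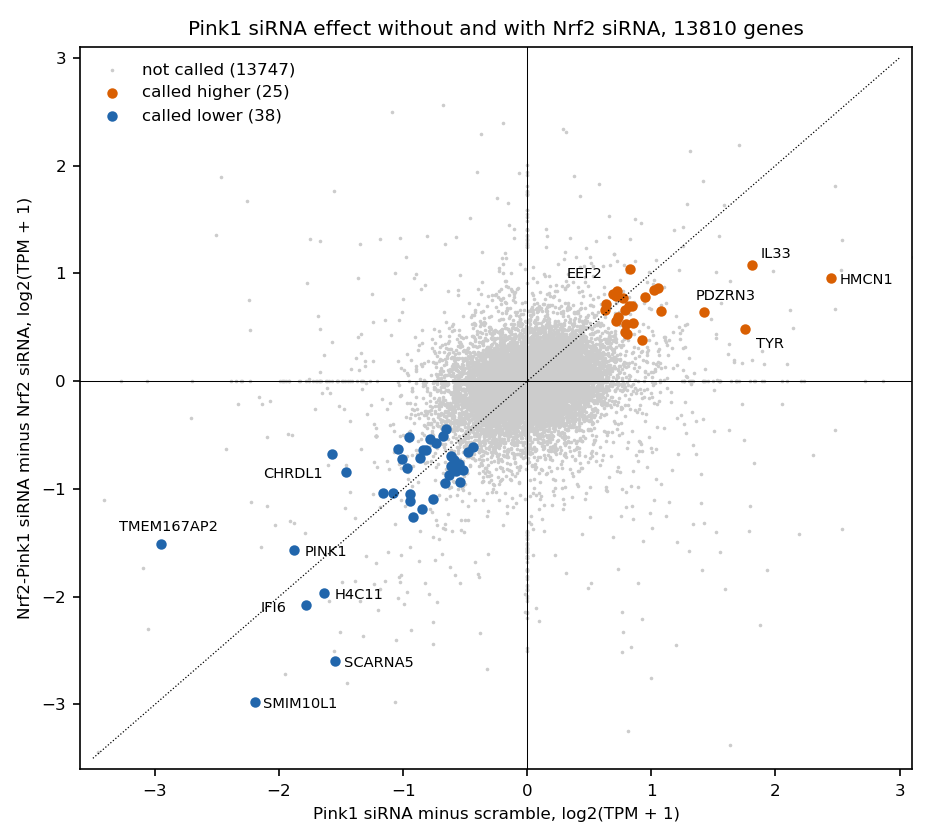
Each point is a gene, with the difference between Pink1 siRNA and scramble on the x axis and the difference between Nrf2-Pink1 siRNA and Nrf2 siRNA on the y axis, both on the log2(TPM + 1) scale. The 25 genes called higher (orange) and the 38 called lower (blue) lie in the quadrants where both differences have the same sign, HMCN1, IL33 and TYR lie below the dotted line of equality, and a few genes outside the axis limits, none of them called, are not shown.

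When all 4 groups were fitted together, most of these genes passed in neither Nrf2 siRNA state by itself. In that fit, 65 genes (0.471%) passed in Pink1 siRNA against scramble and 2 (0.0145%) in Nrf2-Pink1 siRNA against Nrf2 siRNA. Of the 63, 46 passed in neither. These comparisons share no sample. Fitted apart, the scramble and Pink1 siRNA samples alone called 31 of the 63, and the Nrf2 and Nrf2-Pink1 samples alone called 0. The counts that follow are from the fit of all 4 groups. Of the 65 genes called without Nrf2 siRNA, 55 (84.6%) had the same direction with it, against 57.6% of all genes tested. The 49 called higher without Nrf2 siRNA had a median of 0.17 with it (40 in the same direction), and the 16 called lower had a median of -0.46 (15 in the same direction).

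The number of calls rested on individual samples. Without scramble replicate 2, 11 of the 63 passed and no other gene, and the same count held without Pink1 siRNA replicate 2, so that most calls below were lost without either of these samples. In all, 19 genes passed without scramble replicate 3, 25 without Pink1 siRNA replicate 1, 26 without Nrf2 siRNA replicate 3 and 30 without Pink1 siRNA replicate 3. Without Nrf2-Pink1 siRNA replicate 1 or replicate 3 there were 124 and 130. Under all 12 leave-outs 9 of the 63 stayed called: PINK1, EEF2, SLC25A6 and PDZRN3, the BMP antagonist gene CHRDL1, the lysosomal protease gene CTSO, NUP43, NEK7 and ENSG00000271043. For the other called genes below, the number of leave-outs that kept the call is given as a count of 12.

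**Figure D2:**
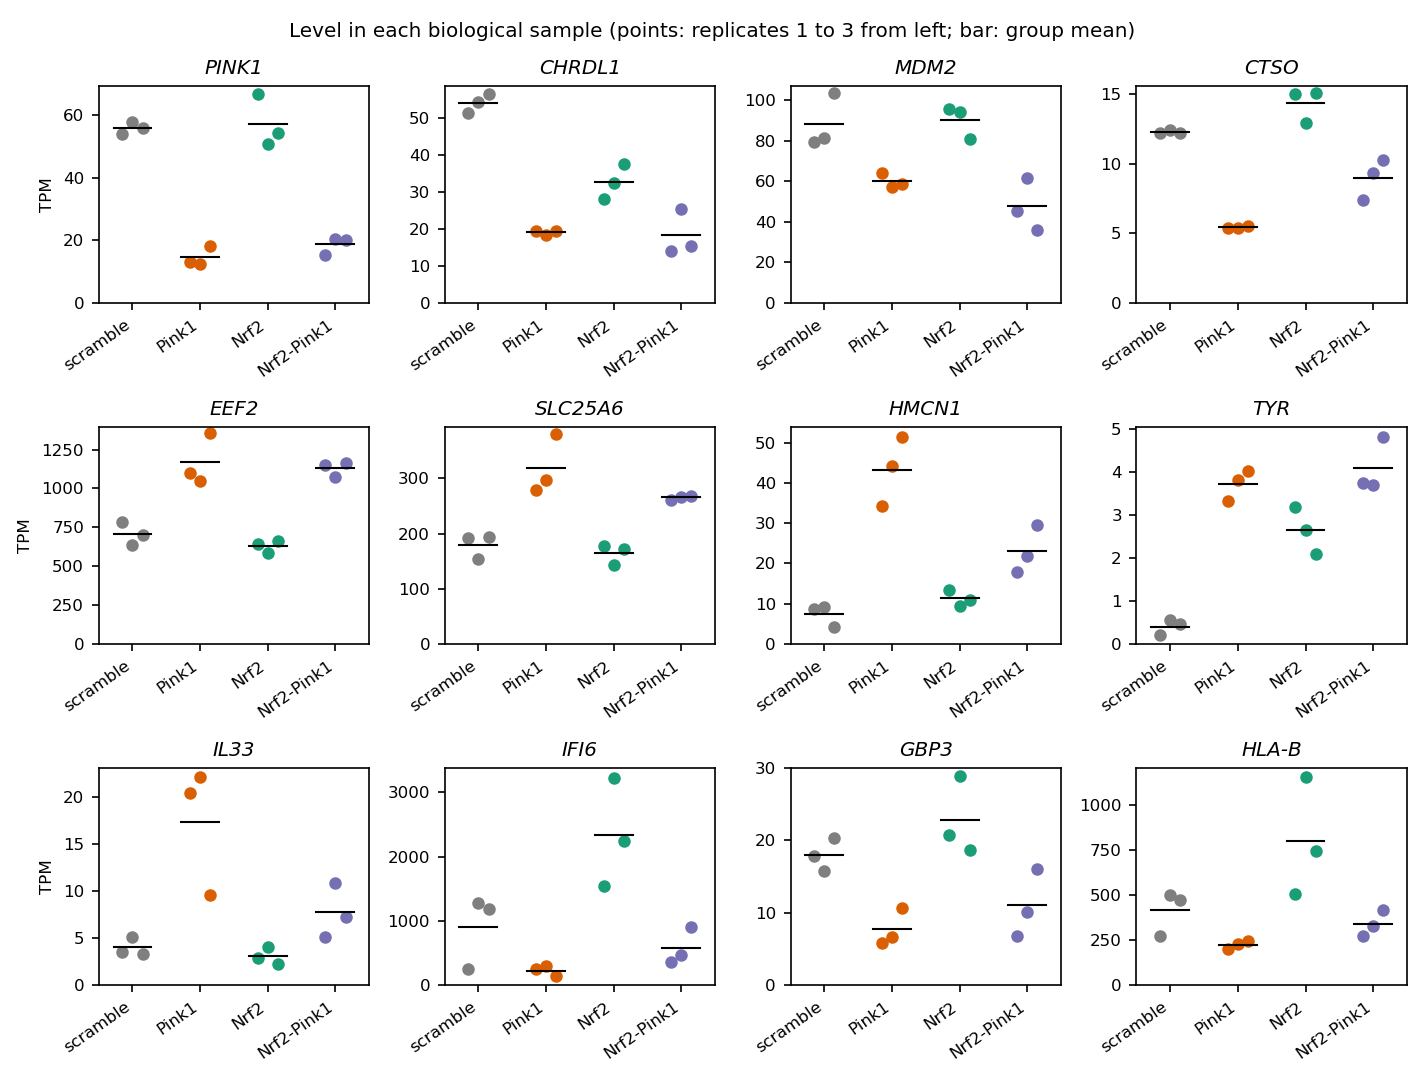
TPM of 12 genes in each biological sample (points, replicates 1 to 3 from left to right) of the 4 groups, with the group mean as a bar and axes that start at 0. PINK1, CHRDL1, CTSO and MDM2 are lower and EEF2, SLC25A6 and HMCN1 higher in both groups with Pink1 siRNA, while scramble replicate 1 lies with the Pink1 siRNA samples for IFI6.

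Among genes of the extracellular matrix and of collagen modification, HMCN1, which encodes the matrix protein hemicentin-1, had the largest rise of all called genes. HMCN1 stood at 8.59, 9.12 and 4.29 TPM in the scramble samples against 34.2, 44.1 and 51.5 TPM with Pink1 siRNA. With Nrf2 siRNA alone it stood at 13.3, 9.51 and 11.01 TPM, and with Nrf2-Pink1 siRNA at 17.9, 21.9 and 29.4 TPM. No sample with Pink1 siRNA fell within the range of those without it, and the rise was larger where Nrf2 siRNA was absent. The log2 difference over all samples was 1.70 (SE 0.267, limma adjusted p = 0.0146, 10 of 12 leave-outs, lost without scramble replicate 2 or Pink1 siRNA replicate 2). It was 2.45 without Nrf2 siRNA and 0.95 with it, a difference that did not pass adjustment (limma adjusted p = 0.4995). P3H1, a prolyl hydroxylase of collagen, ran from 27.3 to 28.6 TPM in scramble and from 44.6 to 56.2 TPM with Pink1 siRNA, and from 43.9 to 58.1 TPM with Nrf2 siRNA and 67.3 to 81.6 TPM with Nrf2-Pink1 siRNA. It rose by 0.69 (limma adjusted p = 0.0146, 9 of 12). COL4A3, a basement membrane collagen chain, went the other way, with a median of 8.18 TPM (6.88 to 10.2) without Pink1 siRNA and 4.95 TPM (4.21 to 5.62) with it (log2 difference -0.65, limma adjusted p = 0.0274, 6 of 12).

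Of the 47 collagen and matrix genes tested, HMCN1 was called higher and COL4A3 lower, and the other 45 did not pass. The list's median log2 difference was 0.21, against 0.01 over all genes tested, with 36 above 0 and 11 below. At an unadjusted p under 0.05, 17 were higher and 2 lower. Over all 13810 genes tested, 7185 were above 0, and 958 were higher and 880 lower at that p. The next largest differences of the list, in genes named after their values were seen, were those of the secreted protein amelotin (AMTN, 1.14, limma adjusted p = 0.0734) and of LTBP1, a matrix protein that holds latent TGF-beta (0.90, limma adjusted p = 0.0759). For LTBP1 the 6 samples with Pink1 siRNA (14.7 to 26.9 TPM) lay above the 6 without it (6.2 to 14.7 TPM) by a narrow margin, although the difference did not pass. FLNA, an actin crosslinker, and TUBB3, a tubulin, were called outside these lists and are also named after their values were seen. FLNA rose by 0.62, from a median of 943 TPM without Pink1 siRNA to 1377 TPM with it (limma adjusted p = 0.0337, 4 of 12), and by 0.39 after quantile normalization, which was not called (limma adjusted p = 0.0515). TUBB3 rose by 0.67, from a median of 35.3 to 51.6 TPM (limma adjusted p = 0.0208, 8 of 12).

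IL33, a cytokine of the IL-1 family that is stored in the nucleus, was higher in both groups with Pink1 siRNA. It stood at 3.54, 5.14 and 3.31 TPM in scramble and 20.4, 22.1 and 9.56 TPM with Pink1 siRNA. With Nrf2 siRNA alone it stood at 2.85, 4.01 and 2.26 TPM, and with Nrf2-Pink1 siRNA at 5.09, 10.8 and 7.25 TPM. The groups did not overlap within either state, although Nrf2-Pink1 replicate 1 lay just under scramble replicate 2. The log2 difference was 1.45 (SE 0.236, limma adjusted p = 0.0182, 8 of 12 leave-outs). IL33 was the only called member of the 17 cytokine and chemokine genes tested, whose median was 0.00 (8 above 0, 9 below).

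PDZRN3, a ubiquitin ligase with PDZ domains, rose by 1.03 (SE 0.152, limma adjusted p = 0.0136), from 8.36 to 11.7 TPM across the samples without Pink1 siRNA to 14.3 to 27.3 TPM with it. The rise was 1.42 without Nrf2 siRNA and 0.64 with it (limma adjusted p of this difference = 0.668). NEDD4, another ubiquitin ligase, fell by 0.73 (limma adjusted p = 0.0208, 7 of 12), from a median of 9.36 TPM to 5.35 TPM. No other member of the 31 ubiquitin ligase and adaptor genes was called, and the list's median was 0.05. The netrin receptor gene UNC5B rose by 0.93 (limma adjusted p = 0.0233, 7 of 12) and PRSS12, which encodes the secreted protease neurotrypsin, by 0.87 (limma adjusted p = 0.0182, 9 of 12). RGS12, a regulator of G protein signalling, rose by 0.87 (limma adjusted p = 0.0371, 4 of 12). PRSS12 was the most abundant of these, at 121 to 199 TPM without Pink1 siRNA and 227 to 359 TPM with it.

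EEF2, the elongation factor that moves the ribosome along the mRNA, rose by similar amounts in both Nrf2 siRNA states. It stood at 786, 635 and 700 TPM in scramble and 641, 588 and 663 TPM with Nrf2 siRNA. With Pink1 siRNA it stood at 1098, 1050 and 1357 TPM, and with Nrf2-Pink1 siRNA at 1152, 1071 and 1165 TPM. Every sample with Pink1 siRNA lay above every sample without it (log2 differences of 0.72 without and 0.84 with Nrf2 siRNA). The log2 difference was 0.78 (SE 0.0992, limma adjusted p = 0.0113).

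RPLP0, a protein of the ribosomal stalk, stood at 1589 to 2420 TPM without Pink1 siRNA and at 2547 to 4586 TPM with it (log2 difference 0.73, limma adjusted p = 0.0371). RPLP0 remained called 3 times in 12, without Nrf2 siRNA replicate 1, Nrf2-Pink1 replicate 1 or Nrf2-Pink1 replicate 3. Sequences nearly identical to translation genes were called as well: EEF1A1P5 (0.75, 7 of 12), EEF1A1P6 (0.94, 4 of 12), RPLP0P6 (0.77, 6 of 12) and RPS3P3 (0.75, 3 of 12). EEF1A1P11, named after its values were seen, was also called (0.96, limma adjusted p = 0.029, 5 of 12). Reads from such copies and from their parent genes cannot be fully separated, so these values are uncertain as values of the copies. The parent gene EEF1A1, which is named after its values were seen and is the elongation factor that delivers aminoacyl-tRNA, stood at 6761 to 10525 TPM without and 10663 to 19138 TPM with Pink1 siRNA. Its 6 and 6 samples did not overlap, but the difference of 0.72 did not pass the test (limma adjusted p = 0.0615). PABPC4, a poly(A)-binding protein also named after its values were seen, rose by 0.64 (limma adjusted p = 0.0474, 2 of 12).

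Over the 76 cytosolic ribosomal protein genes, RPLP0 was the only one called. Their median log2 difference was 0.33 (0.25 without Nrf2 siRNA and 0.39 with it), and 75 were above 0. At an unadjusted p under 0.05, 33 were higher, against 958 of all 13810 genes tested. Per sample, the median log2 level of the list was 10.18, 10.06 and 10.34 in scramble and 10.30, 10.34 and 10.54 with Pink1 siRNA. It was 10.44, 9.69 and 10.12 with Nrf2 siRNA and 9.99, 10.38 and 10.91 with Nrf2-Pink1 siRNA. The samples overlapped in both states, and the Nrf2-Pink1 group had the widest range. The share of all TPM held by ENSG00000226958 was lowest where the list was highest (15.5% in Nrf2-Pink1 replicate 3) and high where it was lowest (38.6% in Nrf2 siRNA replicate 2). With that identifier removed and TPM rescaled, the list's median was 0.25 with 69 of 76 above 0 and 15 called. The median over all genes tested was then -0.06, against 0.01 in the main fit. By median-of-ratios rescaling the list's median was 0.31 with 75 above 0 and 13 called (all genes -0.003). After quantile normalization the list's median was 0.13 with 61 above 0 and 6 called (all genes 0.02). Without Nrf2-Pink1 replicate 3 it was 0.20 with 67 above 0. Mitochondrial ribosomal proteins, by contrast, had a median of -0.02, with 37 of 75 above 0 and none called (0 higher and 5 lower at an unadjusted p under 0.05 in limma).

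SLC25A6, an ADP/ATP carrier of the inner mitochondrial membrane, was the clearest rise among genes of mitochondrial function. It stood at 191, 154 and 195 TPM in scramble and 177, 143 and 172 TPM with Nrf2 siRNA. It reached 280, 298 and 381 TPM with Pink1 siRNA and 262, 267 and 269 TPM with Nrf2-Pink1 siRNA. All 6 samples with Pink1 siRNA lay above all 6 without it (log2 difference 0.76, SE 0.108, limma adjusted p = 0.0128). NT5DC2 rose by a similar amount (0.77, limma adjusted p = 0.0182, 9 of 12), from 117 to 191 TPM without Pink1 siRNA to 226 to 351 TPM with it. Outside the lists and named after its values were seen, PDIA4, a disulfide isomerase of the endoplasmic reticulum, rose by 0.65 (limma adjusted p = 0.0208, 7 of 12), and CRELD2, named in the same way, by 0.66 (limma adjusted p = 0.0408, 3 of 12).

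On the lower side, CHRDL1, a secreted antagonist of bone morphogenetic proteins (BMPs), fell with little spread within the scramble and Pink1 siRNA groups. It stood at 51.4, 54.5 and 56.7 TPM in scramble and 19.4, 18.4 and 19.5 TPM with Pink1 siRNA. With Nrf2 siRNA it stood at 28.1, 32.6 and 37.6 TPM, and with Nrf2-Pink1 siRNA at 14.0, 25.3 and 15.5 TPM. The 6 samples with Pink1 siRNA lay below the 6 without it, and Nrf2 siRNA alone lay between the scramble and Pink1 siRNA groups. The log2 difference was -1.15 (SE 0.155, limma adjusted p = 0.0125), with -1.46 without Nrf2 siRNA and -0.84 with it (limma adjusted p of this difference = 0.8995). CHRDL1 was the only called member of the 38 TGF-beta and BMP pathway genes (median 0.04).

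CTSO, the gene of the lysosomal protease cathepsin O, stood at 12.2, 12.4 and 12.2 TPM in scramble against 5.39, 5.41 and 5.51 TPM with Pink1 siRNA, with little spread inside either group. With Nrf2 siRNA it stood at 14.96, 12.9 and 15.1 TPM, and with Nrf2-Pink1 siRNA at 7.39, 9.32 and 10.2 TPM. The log2 difference was -0.84 (SE 0.114, limma adjusted p = 0.0125), again with no overlap of the 6 and the 6. It was the only called gene among 51 lysosomal genes, whose median was 0.04 with 29 above 0. MFSD8, a lysosomal membrane transporter outside that list and named after its values were seen, fell by 0.79 (limma adjusted p = 0.0146, 10 of 12). PON2, an antioxidant enzyme of intracellular membranes, fell by 0.87 (SE 0.132, limma adjusted p = 0.0146, 11 of 12, lost without scramble replicate 2). It ran from 45.4 to 57.5 TPM without Pink1 siRNA and from 19.6 to 33.9 TPM with it.

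NUP43, a nuclear pore subunit, fell by 1.06 (limma adjusted p = 0.0128), from 8.29 to 12.7 TPM without Pink1 siRNA to 2.75 to 5.81 TPM with it. NEK7, a kinase needed to activate the NLRP3 inflammasome, fell by 0.89 (limma adjusted p = 0.0136), from 34.1 to 55.4 TPM to 13.7 to 32.6 TPM. ASIC1, an acid-sensing ion channel, fell by 0.81 (limma adjusted p = 0.0248, 6 of 12). In all 3 of these genes the 6 samples with Pink1 siRNA lay below the 6 without it. The identifiers ENSG00000261604 and ENSG00000271043, which have no symbol in the name table, had log2 differences of -1.12 (limma adjusted p = 0.0146, 10 of 12) and -0.999 (0.0136, 12 of 12). The GENCODE annotation gives the former as an antisense RNA and the latter as MTRNR2L2, a processed pseudogene that resembles the mitochondrial large ribosomal RNA. Reads of either may belong to the partner gene or the parent sequence, so both values are uncertain.

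MDM2, the ubiquitin ligase that degrades p53, stood at 79.5, 81.1 and 103.5 TPM in scramble and at 95.4, 94.0 and 80.9 TPM with Nrf2 siRNA. It stood at 63.9, 57.1 and 58.7 TPM with Pink1 siRNA and at 45.3, 61.7 and 36.1 TPM with Nrf2-Pink1 siRNA. All 6 lay below the other 6 (log2 difference -0.74, limma adjusted p = 0.0337, 4 of 12), and no other member of the 36 p53 and apoptosis genes passed (median 0.01). PIK3R1, the regulatory p85 subunit of PI 3-kinase, fell by 0.57 (limma adjusted p = 0.0408, 2 of 12, kept without Nrf2-Pink1 replicate 1 or 3), as the only called member of 34 PI3K, AKT and mTOR genes. H4C11, a histone H4 gene, fell by 1.80 (limma adjusted p = 0.024, 6 of 12). Histone H4 genes encode the same protein from similar sequences, and histone mRNAs mostly lack the poly(A) tail that mRNA selection uses, so that value is uncertain. The same holds for RNU4-1 (4 of 12, not called after quantile normalization) and SCARNA5 (5 of 12), small nuclear RNAs without such a tail that were called lower and are named after their values were seen. SMIM10L1, also named after its values were seen, had the largest fitted fall (-2.59, 3 of 12); it was listed at 0 in all 3 Nrf2-Pink1 samples and ranged from 2.63 to 28.7 TPM without Pink1 siRNA.

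Interferon-stimulated genes, which cells raise as a defence against viruses, lay lower with Pink1 siRNA as a list, although few members passed the test. All 49 tested members had a log2 difference below 0, from -0.23 for LGALS3BP to -2.13 for IFI27, with a median of -1.09 (0.01 over all genes tested). At an unadjusted p under 0.05, 42 of 49 were lower, against 880 of all 13810 genes tested. Of the list, 3 were called (IFI6, GBP3 and SP110). The list's median was -0.73 without Nrf2 siRNA and -1.39 with it, and 46 of 49 were lower in both states.

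IFI6, an interferon-induced protein with antiviral activity, shows how the samples differed. It stood at 249, 1270 and 1175 TPM in scramble and at 239, 287 and 132 TPM with Pink1 siRNA. With Nrf2 siRNA it stood at 1542, 3226 and 2241 TPM, and with Nrf2-Pink1 siRNA at 353, 463 and 896 TPM. Scramble replicate 1 lay inside the range of the Pink1 siRNA samples, while the Nrf2 siRNA groups did not overlap. The log2 difference was -1.93 (SE 0.378, limma adjusted p = 0.0394, exact permutation p = 0.01), and the call held in 3 of 12 leave-outs, without scramble replicate 1, Nrf2 siRNA replicate 1 or Nrf2-Pink1 replicate 3.

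The whole list followed that order. Its median log2 level was 3.16, 4.65 and 4.42 in scramble, 2.83, 3.29 and 2.98 with Pink1 siRNA, 4.75, 6.25 and 5.54 with Nrf2 siRNA and 3.23, 4.03 and 4.61 with Nrf2-Pink1 siRNA. Scramble replicate 1 was thus nearer to the Pink1 siRNA samples than to the other scramble samples, and Nrf2 siRNA replicate 2 was the highest of all. Replicate 1 was the lowest sample of each group. Without scramble replicate 1 the list's median was -1.27 and 17 members were called, and without Nrf2 siRNA replicate 2 it was -0.85 and 1 was called. Over all alternatives the median stayed between -1.39 and -0.73, and, leaving aside the fit with a replicate block, the number called ran from 0 to 17. It was 0 without scramble replicate 2 or 3 or without Pink1 siRNA replicate 1 or 2. The number was also 0 without a filter on level, with technical replicate 2 alone and with the Nrf2 and Nrf2-Pink1 samples alone.

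GBP3, an interferon-induced GTPase, separated the groups more evenly than IFI6. It stood at 17.9, 15.7 and 20.4 TPM in scramble and 5.74, 6.60 and 10.7 TPM with Pink1 siRNA. It stood at 20.7, 28.8 and 18.6 TPM with Nrf2 siRNA and 6.79, 10.1 and 16.1 TPM with Nrf2-Pink1 siRNA. The log2 difference was -1.10 (SE 0.191, limma adjusted p = 0.024, 7 of 12). SP110, a nuclear body protein, fell by 1.09 (limma adjusted p = 0.0337, 5 of 12), from a median of 20.0 TPM without Pink1 siRNA to 10.3 TPM with it. DDX60L, a helicase of the antiviral response that is outside the list, fell by 1.03 (limma adjusted p = 0.0343, 5 of 12), from 11.6 to 36.7 TPM to 5.28 to 12.2 TPM. TRIM6-TRIM34, a read-through of neighbouring TRIM genes whose reads are shared with them, fell by 0.93 (limma adjusted p = 0.0146, 11 of 12).

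The promoters of this list often hold the interferon-stimulated response element (ISRE), the DNA element bound by interferon-activated factors. The letters GAAANNGAAA, or TTTCNNTTTC on the opposite strand, occurred in the 250 bases upstream of the start in 21 of the 38 list members with a RefSeq promoter (55.3%). They occurred in 219 of 9943 promoters of tested genes (2.20%) and in 1061 of all 35116 promoters of the RefSeq table (3.02%). Of all called genes, 2 of 28 lower ones and 0 of 15 higher ones with a promoter held a match, and the 2 were IFI6 and DDX60L. Their upstream windows are shown because they carry the element, in capitals, in genes called lower. Both are on the minus strand of GRCh38.p14, and each ends at the base before the annotated start.
IFI6, chr1:27672193-27672442: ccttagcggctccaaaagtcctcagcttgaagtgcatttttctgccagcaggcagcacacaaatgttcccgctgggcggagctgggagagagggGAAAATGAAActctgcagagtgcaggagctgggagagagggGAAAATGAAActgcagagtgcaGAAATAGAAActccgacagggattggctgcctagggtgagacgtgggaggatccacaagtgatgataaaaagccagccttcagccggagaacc
DDX60L, chr4:168480493-168480742: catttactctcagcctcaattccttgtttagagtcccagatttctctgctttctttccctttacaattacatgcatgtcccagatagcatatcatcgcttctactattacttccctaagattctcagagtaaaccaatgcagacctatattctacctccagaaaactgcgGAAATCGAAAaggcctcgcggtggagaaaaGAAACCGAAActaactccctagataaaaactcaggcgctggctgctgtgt
IFI6 holds 3 matches, which begin 156, 115 and 93 bases upstream of the start and do not overlap, and DDX60L holds 2, at 80 and 50 bases. GBP3, SP110 and HLA-B had no match in their windows, which says only that these letters are not in this stretch.

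Genes of antigen presentation by MHC class I lay lower in parallel. HLA-B, a class I heavy chain, stood at 270, 499 and 473 TPM in scramble and 198, 226 and 244 TPM with Pink1 siRNA. It stood at 504, 1158 and 743 TPM with Nrf2 siRNA and 271, 327 and 416 TPM with Nrf2-Pink1 siRNA. The groups did not overlap within either state, and the log2 difference was -1.01 (SE 0.205, limma adjusted p = 0.0474, 3 of 12, kept without scramble replicate 1, Nrf2 siRNA replicate 1 or Nrf2-Pink1 replicate 3). HLA class I genes resemble each other, so reads may be assigned among them with error. HLA-B was the only called member of 18, of which 17 were below 0 with a median of -0.50. At an unadjusted p under 0.05, 13 were lower, against 880 of all 13810 genes tested. B2M, the light chain of class I and named after its values were seen, had a difference of -1.04 (limma adjusted p = 0.0656). The macrophage and lysosome marker CD68 had a mean of 48.5 TPM without Pink1 siRNA and 34.7 TPM with it. The leukocyte markers PTPRC and CD3D stayed at or below 0.445 and 0.72 TPM. The part of CD68-expressing cells in these differences was not tested.

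**Figure D3:**
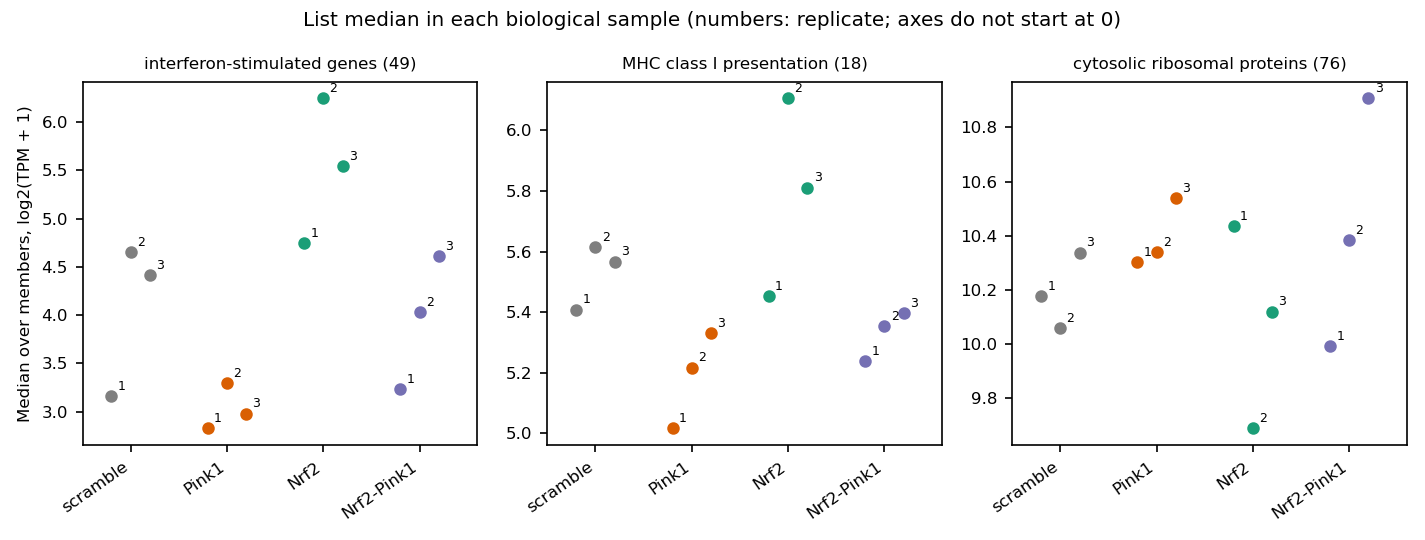
Median log2(TPM + 1) over the members of 3 gene lists in each biological sample, with the replicate number beside each point and axes that do not start at 0. The interferon and MHC class I lists are lower in every Nrf2-Pink1 sample than in every Nrf2 siRNA sample, and scramble replicate 1 (3.16) lies among the Pink1 siRNA samples for the interferon list but not for the MHC class I list, while the ribosomal list spreads from 9.99 to 10.91 within the Nrf2-Pink1 group alone.

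Melanin genes included a called member, TYR, which encodes tyrosinase, the enzyme that starts melanin synthesis. TYR stood at 0.195, 0.545 and 0.465 TPM in scramble and 3.33, 3.81 and 4.02 TPM with Pink1 siRNA. It stood at 3.20, 2.66 and 2.10 TPM with Nrf2 siRNA and 3.75, 3.70 and 4.82 TPM with Nrf2-Pink1 siRNA. All samples with Pink1 siRNA lay above those without it, on a low level, and every group with any of the targeting siRNAs lay above scramble. The log2 difference of 1.12 (SE 0.227, limma adjusted p = 0.0482) was called in 3 of 12 leave-outs (without Nrf2 siRNA replicate 1, Nrf2-Pink1 replicate 1 or Nrf2-Pink1 replicate 2). It was 1.76 without Nrf2 siRNA and 0.48 with it (limma adjusted p of this difference = 0.4995).

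TYRP1, which encodes another enzyme of melanin synthesis, had a difference of the same size that did not pass. It stood at 9.77, 8.29 and 11.7 TPM in scramble and 40.01, 43.6 and 52.99 TPM with Pink1 siRNA. It stood at 24.6, 23.9 and 21.1 TPM with Nrf2 siRNA and 24.4, 20.8 and 34.5 TPM with Nrf2-Pink1 siRNA. The groups were far apart without Nrf2 siRNA (log2 difference 2.09) and overlapped with it (0.16), and the log2 difference over all samples was 1.13 (SE 0.29, limma adjusted p = 0.103). MITF, the transcription factor that drives pigment genes, had a difference of 0.42 (limma adjusted p = 0.228), with 55.3 to 74.7 TPM without and 59.2 to 110.5 TPM with Pink1 siRNA. Over the 27 melanin and melanosome genes the median was 0.06 (21 above 0), with 7 higher and 1 lower at an unadjusted p under 0.05.

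MITF binds an element known as the M-box, whose core reads CATGTG on one strand and CACATG on the other. It occurred in 7 of 19 promoters of the list (36.8%), against 515 of 9943 promoters of tested genes (5.18%) and 3307 of all 35116 in the table (9.42%). Stretches of 30 bases around the core, in capitals, are shown for TYR and TYRP1, the members with the largest differences, as the RefSeq promoters of GRCh38.p14 give them on the plus strand.
TYR, chr11:89177759-89177788: agaaaagtcagtCATGTGcttttcagagga
TYRP1, chr9:12693229-12693258: ttggaagggaatCATGTGctgatcaagtcc
The core begins 104 bases upstream of the start of TYR and 144 bases upstream of that of TYRP1.

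The processes for which PINK1 is known showed few changes in their mRNA. Of 37 mitophagy genes, PINK1 was the only one called, with a median of 0.00, 18 above 0 and 19 below. The mitophagy receptor BNIP3 had a log2 difference of -0.06 (limma adjusted p = 0.894) and the adaptor SQSTM1 of 0.09 (limma adjusted p = 0.745). None of 33 core autophagy genes was called in limma (0 higher and 2 lower at an unadjusted p under 0.05), and its most abundant member GABARAP had a difference of 0.02 (adjusted p = 0.97).

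Subunits of the respiratory chain lay slightly lower in the comparison of 6 with 6, without passing the test. Among 37 complex I genes the median was -0.13, with 25 below 0, none called and 6 lower at an unadjusted p under 0.05. Among 41 genes of complexes II to V it was -0.07, with 28 below 0, none called and 2 lower at an unadjusted p under 0.05. For complexes II to V the median was -0.16 without Nrf2 siRNA and 0.03 with it, so the lower level was not common to both states. The median of the complex I list ran from -0.21 to 0.02 over the alternatives, so its direction was not stable. None was called in limma among 24 genes of mitochondrial dynamics and biogenesis (median -0.04, 1 higher and 3 lower at an unadjusted p under 0.05) or 19 mitochondrial chaperones and proteases (0.04, 3 and 1). The same held for 15 mitochondrial antioxidant genes (0.10, 4 and 0) and 25 genes of the integrated stress response (0.09, 2 and 1). ATF4, the transcription factor of that response, had a difference of 0.08 (limma adjusted p = 0.844).

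NRF2 targets did not pass the test with Pink1 siRNA. Among 31 tested, 22 were above 0 with a median of 0.11, none was called and 3 were higher at an unadjusted p under 0.05. Over all 13810 genes tested, 7185 were above 0 and 958 were higher at that p. NQO1, the classic NRF2 target, stood at 153, 166 and 163 TPM in scramble and 150, 191 and 180 TPM with Pink1 siRNA. With Nrf2 siRNA it stood at 49.7, 40.3 and 43.5 TPM, and with Nrf2-Pink1 siRNA at 46.6, 61.9 and 72.4 TPM. The groups with and without Pink1 siRNA overlapped in both states (log2 difference 0.26, limma adjusted p = 0.381). TXNRD1 and HMOX1 had differences of 0.19 and 0.14 (limma adjusted p = 0.442 and 0.726), and mitochondrial TXNRD2 of 0.19 (0.527). Ferritin light chain, FTL, had 0.58 (limma adjusted p = 0.107, 1 of 12).

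None of 21 mesenchymal and EMT genes was called either. VIM, the mesenchymal filament protein, stood at 3954 to 5399 TPM without Pink1 siRNA and 4447 to 7971 TPM with it (log2 difference 0.20, limma adjusted p = 0.555). FN1, fibronectin, had a difference of 0.34 (limma adjusted p = 0.373), N-cadherin (CDH2) of 0.12 (0.681) and the repressor ZEB1 of 0.18 (0.579). The list's median was 0.12, with 14 above 0, 5 higher and 1 lower at an unadjusted p under 0.05. E-cadherin (CDH1, at most 0.795 TPM) and the repressor SNAI1 (at most 0.46 TPM) were below 1 TPM and were not tested. The 24 epithelial junction and keratin genes had a median of 0.00, 12 above and 12 below 0, and none was called (3 higher and 2 lower at an unadjusted p under 0.05).

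**Figure D4:**
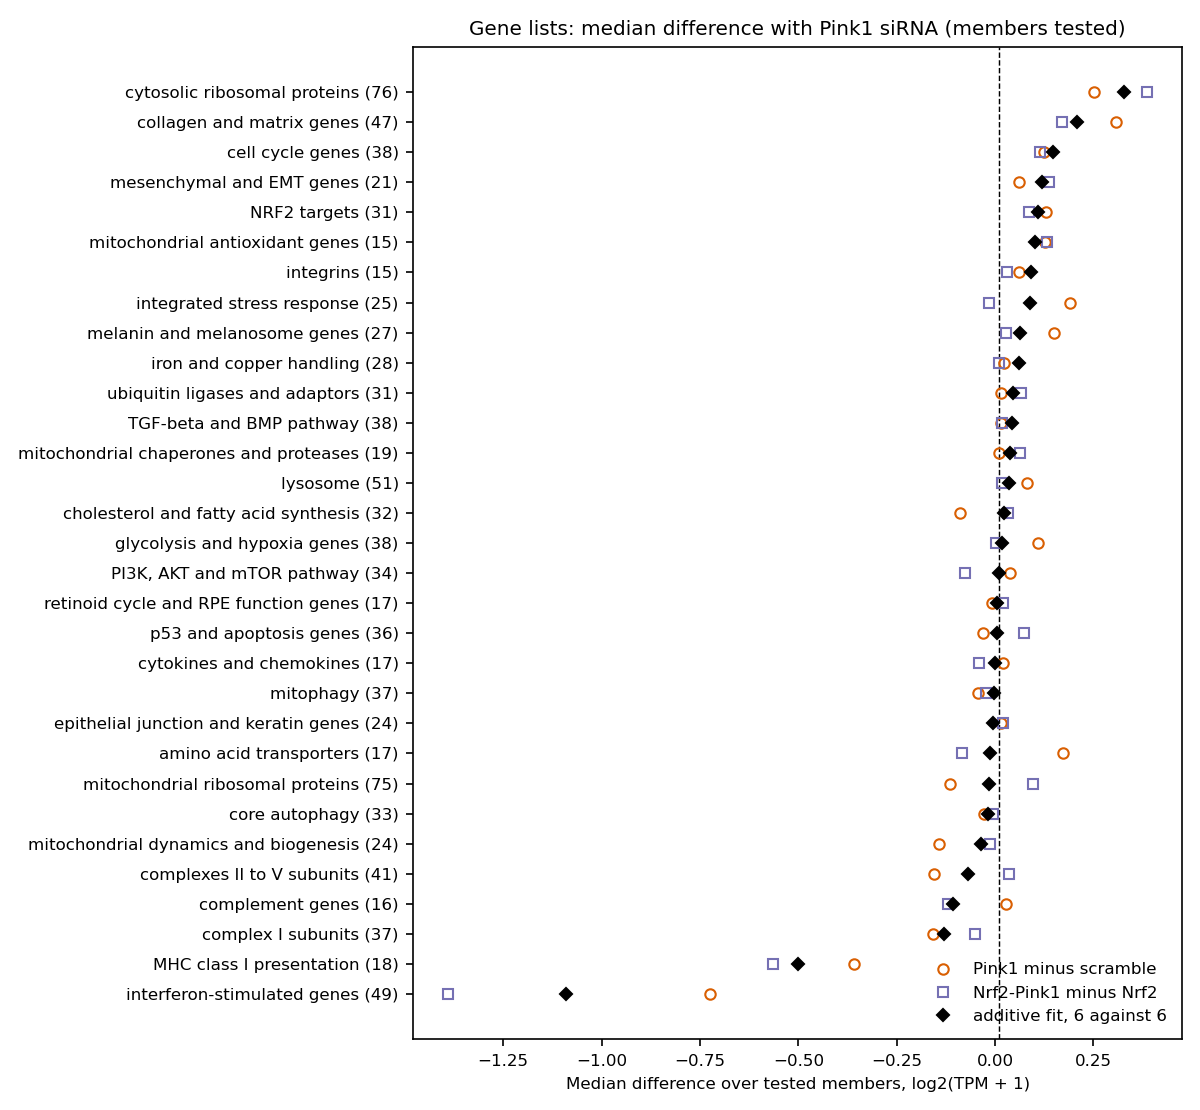
Median log2 difference over the tested members of each gene list other than the cell type markers (number of members in brackets) in the comparison of 6 with 6 (diamonds), in Pink1 siRNA minus scramble (circles) and in Nrf2-Pink1 minus Nrf2 siRNA (squares), with the median of all genes as a dashed line at 0.01. The interferon list (-1.09) and the MHC class I list (-0.50) stand apart below, the cytosolic ribosomal list (0.33) is the highest, and the remaining lists shown lie between -0.13 and 0.21.

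The Pink1 siRNA effect was also compared between the Nrf2 siRNA states by the interaction term over all genes. No gene was called in limma (smallest adjusted p = 0.0558, the value of TYRP1), and 753 genes (5.45%) had an unadjusted p under 0.05. Among the 63 called genes, 7 had an unadjusted interaction p under 0.05: TYR, HMCN1, PDZRN3, ENSG00000261604, PDIA4, TMEM167AP2 and CHRDL1. All 7 had the larger difference where Nrf2 siRNA was absent, as with PDIA4 (0.92 against 0.38) and ENSG00000261604 (-1.57 against -0.68). Genes called higher more often had their larger difference without Nrf2 siRNA (18 of 25) and those called lower did so in 17 of 38; this contrast between directions was not tested. The median size of the difference over the 63 genes was 0.83 without Nrf2 siRNA and 0.77 with it on the log2 scale.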

How the data were processed

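RNA sequencing of ARPE-19 cells was deposited by the authors as a table of TPM for 24 samples and 24053 Ensembl gene identifiers, of which 19325 have a symbol in the name table. Per the labels' protocols, stranded libraries were prepared from mRNA and sequenced from both ends. STAR, RSEM and edgeR and the builds GRCh37 and hg19 are named per the submitters' processing notes; no source used here gives versions or roles. The columns sum to between 999678 and 999945, so depth is unknown.

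Technical replicates were averaged on the TPM scale. Genes that averaged 1 TPM or more were fitted on log2(TPM + 1) with limma 3.58.1 in R 4.3.3 (moderated, two-sided, intensity trend, 9 residual and 5.03 prior degrees of freedom), with Pink1 siRNA and Nrf2 siRNA as terms. Calls required an adjusted p (Benjamini-Hochberg, 13810 genes) under 0.05. A fit of the 4 groups gave the effect within each Nrf2 siRNA state and the interaction. The script was tested on simulated data. Gene lists were described by counts and medians without a set test. Promoters are the 250 bases before each start in a RefSeq table of GRCh38.p14, another build than that of the files; they were matched by symbol, and no coordinates of the files were used.

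The genes named are PINK1 and NFE2L2, the 15 called genes per direction with the largest change (mean of at least 5 TPM, no overlap within either state), up to 6 called members of each list or else its 2 most abundant, and a fixed set of EMT, pigment, NRF2 and mitophagy genes. A gene of that set is not reported here. Members, lists and this rule were chosen with earlier results of these data known. The alternatives were other pseudocounts, filters, scalings, fits and sample weights, single technical replicates, either Nrf2 siRNA state alone and each sample left out.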

Additional observations from a re-analysis of the deposited data

Results flagged for a closer look

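Samples far from the others were looked for among 166 sets of 6 values, with Dixon's critical value for 6 samples. The sets were the samples with or the samples without Pink1 siRNA, for each tested gene that the naming rule gave. Genes named only after their values were seen were not screened. For 6 values of 1 kind the test flags about 5% of sets by chance, but each set here holds both Nrf2 siRNA states. It flagged 9 sets. SLC25A6 was highest in Pink1 siRNA replicate 3 at 381 TPM, with the nearest sample at 298 TPM. In Nrf2 siRNA replicate 2, the lowest sample without Pink1 siRNA, the autophagy gene GABARAP stood at 276 TPM, the fission factor MFF at 87.5 TPM, the chaperone HSPD1 at 267 TPM, the sterol enzyme FDFT1 at 102 TPM and the mitochondrial ribosomal protein MRPS6 at 80.9 TPM. PRDX5 was lowest in Nrf2 siRNA replicate 3 at 243.5 TPM. The mitochondrial chaperones HSPD1 (253 TPM) and HSPA9 (121 TPM) were lowest of the Pink1 siRNA samples in Nrf2-Pink1 replicate 1. Of these genes, SLC25A6 is the only one called, and its call held without Pink1 siRNA replicate 3. Nrf2 siRNA replicate 2 and Nrf2-Pink1 replicate 1 also had the largest shares of TPM held by ENSG00000226958 (38.6% and 41.4%). That share enters the level of every other gene, and its part in these flags was not tested.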

How the results depend on the processing

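Against 63 calls (25 higher, 38 lower), 23 genes (10, 13) passed without a filter on level, 41 (18, 23) with technical replicate 1 alone and 19 (10, 9) with technical replicate 2 alone. Rescaling gave 271 (137, 134) by median of ratios, 237 (121, 116) by quantile normalization and 268 (86, 182) with ENSG00000226958 removed, which moved the higher share from 39.7% to 50.6%, 51.1% and 32.1%; these fits held 63, 61 and 63 of the 63 genes. Sample weights gave 347 (181, 166; 52.2% higher) and the 4-group fit 90 (45, 45). The scramble and Pink1 siRNA samples alone gave 195 (114, 81), and the Nrf2 and Nrf2-Pink1 samples alone 0 (0, 0) in limma, with 624 genes (4.52%) at an unadjusted p under 0.05 and PINK1 at -1.57, not called. With a replicate block, 101 genes passed (34, 67), 21 of them interferon-stimulated genes. Over all genes tested, replicate numbers did not pair the samples. Deviations of same-numbered samples correlated at -0.08 to 0.11 over 18 pairs, and those of other pairs at -0.13 to 0.17. In the interferon and MHC class I lists, however, replicate 1 had the lowest median of each group. A pairing within these lists was not tested, and the block is given only here. Leaving out a sample gave 11 to 130 calls, 3 to 86 higher and 8 to 84 lower. The higher share then ran from 21.05% without scramble replicate 3 to 69.35% without Nrf2-Pink1 replicate 1, so the balance of directions rested on single samples. NFE2L2 was at -0.23 in the scramble and Pink1 siRNA samples alone and at -0.033 to 0.25 when a sample was left out. Interaction calls numbered 3 with a minimum of 5 TPM, 2 by median of ratios, 2 by quantile normalization, 2 with ENSG00000226958 removed, 3 with sample weights and 0 to 4 when a sample was left out. The causes of these shifts were not tested. Among 36 called genes that the naming rule gave, 0 of 935 values reversed and 262 no longer passed. These genes were chosen as called, and the alternatives reuse the same samples, so the 0 is no independent check of direction. Depth is unknown, and levels near 1 TPM are the least certain.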

Other observations

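In several groups not described above the median moved little with Pink1 siRNA. The 38 cell cycle genes had a median log2 difference of 0.15, with 28 above 0 and none called in limma (5 higher and 0 lower at an unadjusted p under 0.05). CCND1, cyclin D1, had 0.19 and CDK4 0.20 (limma adjusted p = 0.465 and 0.44). The 15 integrin genes (median 0.09), 16 complement genes (-0.11), 32 genes of cholesterol and fatty acid synthesis (0.02) and 38 glycolysis and hypoxia genes (0.02) held no call. At an unadjusted p under 0.05 they held 5, 1, 3 and 1 higher and 2, 4, 1 and 1 lower genes. Integrin and complement genes thus differed in both directions at that level, which 13.3% of all genes tested reached. The 28 iron and copper genes (0.06), 17 amino acid transporters (-0.01) and 17 retinoid cycle and RPE function genes (0.01) held no call either. They had 4, 1 and 2 higher and 1, 0 and 0 lower genes at that level.

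The complement protease C1R lay above scramble with Pink1 siRNA (log2 difference 0.62) and below Nrf2 siRNA with Nrf2-Pink1 siRNA (-0.46), a difference that did not pass adjustment (limma adjusted p = 0.4995). Outside the lists, called genes named after their values were seen included the clock repressor NR1D2 (-0.67, 6 of 12 leave-outs), the xenobiotic enzyme CYP1A1 (-0.55, 3 of 12), the iron-sulfur assembly factor BOLA3 (-0.66, 2 of 12), the tankyrase TNKS2 (-0.65, 9 of 12) and the adaptor CD2AP (-0.66, 2 of 12). The pseudogene TMEM167AP2 (-2.23, 11 of 12) stood at 0.985 to 13.7 TPM without Pink1 siRNA and was listed at 0 in 4 of the 6 samples with it.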
